A study of Homo sapiens with 4 samples.

Results

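The 7 ND genes of mitochondrial DNA (*ND1*, *ND2*, *ND3*, *ND4*, *ND4L*, *ND5* and *ND6*) were examined in LUAD cells after silencing of circZFR. They were the rows with these symbols, 7 of the 40205 genes listed in each library, and the files class them as ncRNA although each encodes a protein. RNA-seq on the Ion Proton gave 4 libraries, 2 from cells given a negative control siRNA (NC 1, NC 2) and 2 from cells given siRNA against circZFR (si-circZFR 1, si-circZFR 2), all taken after 24 h in RPMI with fetal calf serum. Where 4 values are given in library order, the order is NC 1, NC 2, si-circZFR 1, si-circZFR 2. circZFR is a circular RNA back-spliced from exons of *ZFR*, and the study asked whether its loss affects OXPHOS. The labels name H1299 cells and the article and study design name A549 cells, both human lung cancer lines. *AKR1B10*, known to be high in A549 cells, was at 1271 to 1747 RPKM and *CDKN2A*, known to be deleted in A549 cells, was listed at 0 in all 4 libraries. The fibrinogen genes *FGB* and *FGG*, also taken as A549 markers, were low (0.761 to 2.64 and 1.99 to 6.10 RPKM), and *VIM*, taken as an H1299 marker, was high (555 to 601 RPKM), so the line was not settled by these levels. RPKM expresses the reads of a gene per unit of length and of sequencing depth. Nothing in the labels says whether the 2 libraries of a group came from separate cultures, so the spread between them may be technical. The p-values combine this spread with a variance estimated over other genes.

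Complex I (NADH dehydrogenase) is the first enzyme of the respiratory chain. It passes electrons from NADH to ubiquinone and pumps protons across the inner mitochondrial membrane. Its membrane arm holds the 7 ND proteins, the only complex I subunits encoded in mitochondrial DNA, and the other subunits are encoded in the nucleus. Mitochondrial DNA is transcribed from both strands into long precursors, which are cut at the tRNAs into single RNAs. The precursor with 6 of the ND RNAs is here called the heavy-strand transcript, and that with *ND6* and a few tRNAs the light-strand transcript. RNAs cut from 1 precursor are not independent of each other.

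The 6 heavy-strand ND genes lie on the plus strand of the reference (GRCh38, chromosome M), *ND1* from 3307 to 4262, *ND2* from 4470 to 5511, *ND3* from 10059 to 10404, *ND4L* from 10470 to 10766, *ND4* from 10760 to 12137 and *ND5* from 12337 to 14148. *ND6* lies on the minus strand from 14149 to 14673. *ND4L* and *ND4* are read from 1 mRNA, and their coding sequences share 7 bases, shown in capitals because reads across them belong to both genes. *ND5* and *ND6* meet end to end, and in the border sequence, read on the plus strand, the capitals mark the last 3 bases of each coding sequence (TAA of *ND5*, and AGG of *ND6* read on its own strand). The first 60 bases of *ND5* and *ND6*, each read on its own strand, are shown with every G in capitals, because the base content tells the 2 precursors apart.
ND4L-ND4 overlap, chrM:10736-10790: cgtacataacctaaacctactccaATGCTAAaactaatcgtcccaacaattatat
ND5-ND6 border, chrM:14119-14178: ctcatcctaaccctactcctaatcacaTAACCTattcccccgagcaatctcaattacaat
ND5 start, chrM:12337-12396: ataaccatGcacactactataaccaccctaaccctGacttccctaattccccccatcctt
ND6 start, chrM:14614-14673, minus strand: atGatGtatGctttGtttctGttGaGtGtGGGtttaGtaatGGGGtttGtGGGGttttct

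Of these 60 bases, 2 are G in *ND5* and 21 are G in *ND6*. Over the whole coding sequence, G made up 35.6% of *ND6* and 9.50% to 12.1% of the heavy-strand ND genes, and C made up 7.05% of *ND6* and 29.5% to 36.0% of the others. The GC content of *ND6*, 42.7%, lay within the range of the other 6, 40.2% to 47.7%. The coding sequences ran from 297 bases (*ND4L*) to 1812 bases (*ND5*). *ND1* ends 2 bases and *ND2*, *ND3* and *ND4* end 1 base past the last full codon, and their stop codons are known to be completed by the poly(A) tail.

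All 37 genes of mitochondrial DNA had whole numbers of reads at their reference lengths in every library, which gave library totals of 11040050 to 12816868 reads. *ZFR*, the gene circZFR comes from, had 25.5, 28.8, 5.35 and 5.13 RPKM in library order (log2FC -2.33 ± 0.17 SE, limma FDR = 0.0388), but reads of the circle and of linear *ZFR* are not separated in the values. By RT-PCR in HCC827 and A549 cells the article found circZFR lowered by its siRNA, with no detectable change of *ZFR* RNA. Why the gene as a whole stood lower here was not tested. The epithelial keratin genes *KRT8* and *KRT18* were at 721 to 1832 RPKM. *EPCAM* was low, at 0.389, 0.363, 1.86 and 2.95 RPKM in library order (4, 4, 18 and 28 reads). *CDH1* was at 11.2, 7.70, 22.1 and 23.6 RPKM. Summed RPKM of the 5 epithelial markers, mostly from *KRT8* and *KRT18*, was 2046 and 2522 in NC, 3255 and 3439 in si-circZFR. The scaled RPKM of all 5 epithelial markers was higher in both si-circZFR libraries than in either NC library, for *EPCAM* on few reads. Of all genes tested, 28.1% stood higher in both si-circZFR libraries in this way. Of 4 immune and 4 fibroblast markers, 3 of each were listed at 0 throughout, among them *PTPRC*, *CD3E*, *DCN* and *LUM*. The others, *CD14* (5.99, 5.21, 7.92 and 8.90 RPKM in library order) and *COL1A1* (0.861, 0.553, 1.36 and 2.09 RPKM), also stood higher in si-circZFR. The nuclear RNAs *NEAT1* (218, 42.7, 297 and 412 RPKM in library order) and *MALAT1* (58.996, 22.3, 79.9 and 91.4 RPKM) did so too, and were lowest in NC 2. Their part in the results below was not tested.

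The ND transcripts were among the most abundant RNAs of these cells, apart from *ND6*. By RPKM as deposited, which compares genes per length, *ND4L* held rank 3 of all listed genes in NC 1 and rank 4 in NC 2, si-circZFR 1 and si-circZFR 2, and *ND3* ranked between 17 and 24. *ND6* ranked between 2331 and 4405. The 7 genes together took 562346, 559718, 423404 and 215732 reads in library order. These were 4.77%, 4.43%, 3.81% and 1.99% of the reads on listed genes (95% Wilson intervals, for counting error only, 4.76% to 4.78%, 4.42% to 4.44%, 3.80% to 3.83% and 1.978% to 1.995%). The mean share was 4.60% ± 0.243 for NC against 2.90% ± 1.29 for si-circZFR (SD, n = 2 each). Both si-circZFR libraries lay below both NC libraries, but si-circZFR 2 was farther from si-circZFR 1 than si-circZFR 1 was from either NC library.

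**Figure D1:**
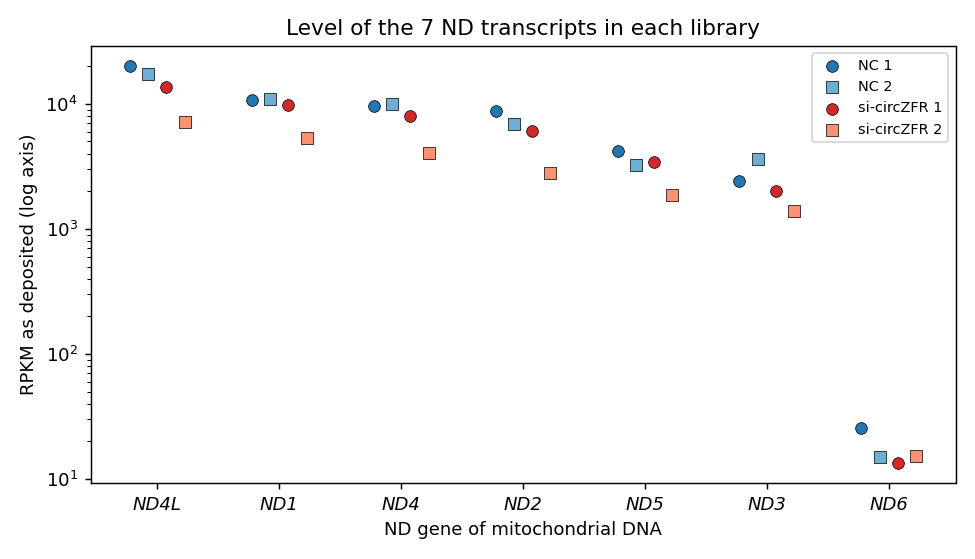
RPKM as deposited (log axis) of the 7 ND genes in each of the 4 libraries, 1 point per library. *ND4L* is at 7144 to 20141 RPKM and *ND6* at 13.4 to 25.8, and si-circZFR 2 is the lowest library for each of the 6 heavy-strand genes.

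The order of the levels was nearly fixed. In NC 1, si-circZFR 1 and si-circZFR 2 it ran *ND4L*, *ND1*, *ND4*, *ND2*, *ND5*, *ND3* and *ND6* from high to low, and in NC 2 *ND3* stood above *ND5*. For the comparison between groups RPKM was divided by a factor for each library, from trimmed means of log ratios, of which the lowest was 0.904 (NC 2) and the highest 1.11 (si-circZFR 2). Among the NC means of scaled RPKM, the values of *ND1* and *ND4* overlapped, and so did those of *ND5* and *ND3*, while the other neighbours did not overlap. In si-circZFR all neighbours overlapped except *ND3* and *ND6*, and the 2 libraries of that group stood apart at each heavy-strand gene.

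*ND1*, a membrane subunit at the site where ubiquinone enters the enzyme, had 10989, 12074, 9664 and 4847 scaled RPKM in library order. Its group means were 11532 ± 767 for NC and 7255 ± 3406 for si-circZFR (SD, n = 2 each), and its log2FC was -0.75 (SE 0.64, limma FDR = 0.521). Both si-circZFR values lay below both NC values, and si-circZFR 2 lay much lower than si-circZFR 1. *ND2*, an antiporter-like subunit of the proton-pumping arm, had 8891, 7631, 5935 and 2505 scaled RPKM in library order. The log2FC of *ND2*, -1.09 (SE 0.61, limma FDR = 0.342), was the lowest of the 7, level with that of *ND4L*.

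*ND4L* and *ND4*, the pair on 1 mRNA, gave like differences. *ND4L*, a small membrane subunit, had 20535, 19289, 13512 and 6442 scaled RPKM in library order (log2FC -1.09 ± 0.73 SE, limma FDR = 0.420). *ND4*, a further antiporter-like subunit, had 9734, 10995, 7799 and 3628 scaled RPKM in library order (log2FC -0.96 ± 0.62 SE, limma FDR = 0.410). For both genes the NC libraries were close together, and si-circZFR 2 was farther from si-circZFR 1 than si-circZFR 1 was from either NC library. The level per length of *ND4L* relative to *ND4* was 2.11, 1.75, 1.73 and 1.78 in library order. This ratio, which does not depend on the scaling between libraries, overlapped between the groups.

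*ND5*, the largest subunit of the membrane arm, had 4301, 3619, 3346 and 1670 scaled RPKM in library order. The log2FC of *ND5* was -0.74 (SE 0.50, limma FDR = 0.423), the smallest difference among the heavy-strand ND genes. *ND3*, a short subunit near the junction of both arms of the enzyme, had 2457, 4005, 1982 and 1249 scaled RPKM in library order. *ND3* was the heavy-strand ND gene on which the NC libraries differed most, by 0.70 on the log2 scale, and its log2FC was -0.99 (SE 0.46, limma FDR = 0.270).

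*ND6*, the light-strand member, had 26.3, 16.6, 13.1 and 13.8 scaled RPKM in library order. These rested on 162, 101, 79 and 89 reads, with 95% exact Poisson intervals of 138 to 189, 82.3 to 123, 62.5 to 98.5 and 71.5 to 110 reads. The high value was that of NC 1, and the intervals of the other 3 read counts overlapped. The group means were 21.5 ± 6.86 for NC and 13.5 ± 0.508 for si-circZFR (SD, n = 2 each), and the log2FC was -0.60 (SE 0.24, limma FDR = 0.225). Unlike at the other 6 genes, the si-circZFR libraries were close together, 0.07 apart on the log2 scale. With RPKM as deposited, without scaling, *ND6* was at 15.01 in NC 2 and 15.4 in si-circZFR 2, so the groups overlapped, as they did for *ND5* (3271 in NC 2, 3405 in si-circZFR 1). After a correction of each library for transcript length the log2FC of *ND6* was -0.17 (limma FDR = 0.776), it was -0.29 without NC 1, and it was -0.92 without NC 2.

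None of the 7 passed FDR under 0.05 with |log2FC| over 1 by limma, where 0.0576% of the 13885 genes tested did (8 genes, with 0.0288% passing in the lower direction). One of the 7, *ND6*, had an unadjusted p under 0.05 in the lower direction, where 11.5% of all genes did (21.7% in either direction). With limma-voom on recovered reads none of the 7 passed, where 2.15% of all genes did, and 4 had an unadjusted p under 0.05, where 23.5% of all genes did. All 7 had a negative log2FC, as did 49.3% of all genes, and all 7 were under -0.5, as were 12.6%, and for all 7 both si-circZFR libraries lay below both NC libraries, as for 28.1% of all genes. Their median log2FC was -0.96, against 0.01 for all genes tested, and the si-circZFR mean was between 50.01% (*ND3*) and 63.3% (*ND5*) of the NC mean of scaled RPKM. Between 1.88% and 9.56% of all genes had a lower log2FC than the member in question.

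The size of the difference depended on which si-circZFR library was taken. Taken library by library, the median log2 difference of the 7 genes was -0.36 for si-circZFR 1 against each of NC 1 and NC 2, but -1.36 for si-circZFR 2 against NC 1 and -1.58 against NC 2. Between libraries of the same group it was -0.09 for NC 2 over NC 1 and -1.003 for si-circZFR 2 over si-circZFR 1. The difference between the si-circZFR libraries at the heavy-strand ND genes ran from 0.67 (*ND3*) to 1.24 (*ND2*) on the log2 scale, and 1.09% to 4.74% of all genes differed more. The median over all genes was 0.16. At *ND6*, 75.4% of all genes differed more between the si-circZFR libraries. Without si-circZFR 2 the median log2FC of the 7 genes was -0.46, and without si-circZFR 1 it was -1.31.

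**Figure D2:**
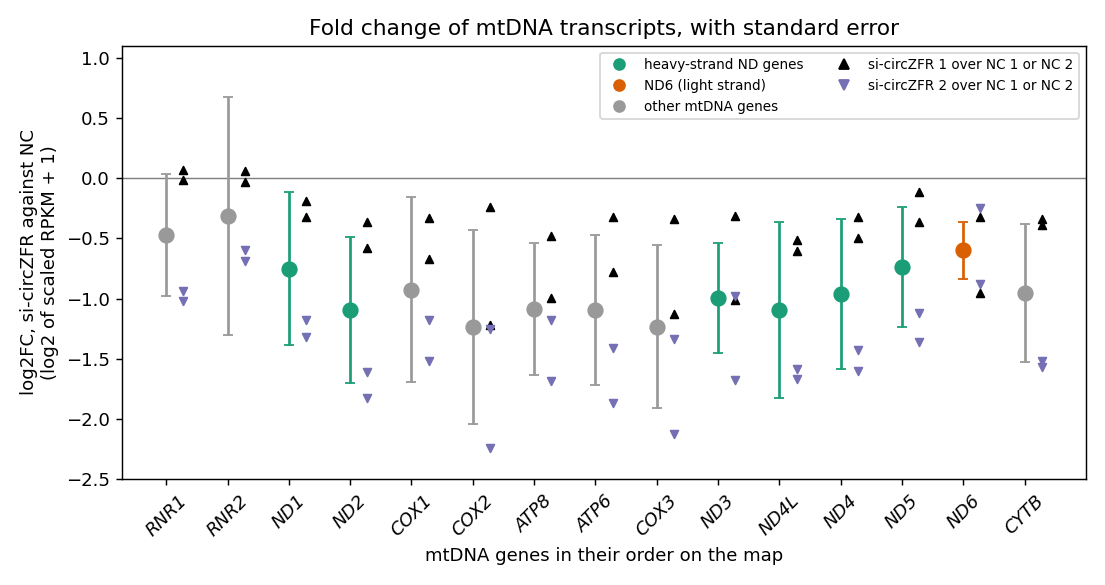
Log2FC of si-circZFR against NC for the protein and rRNA genes of mitochondrial DNA in map order, as large points with standard errors from limma (2 libraries a group), and the 4 library pairs as small triangles. For the heavy-strand genes other than *ND3* both triangles of si-circZFR 2 lie below both of si-circZFR 1, whereas at *ND6* they mix.

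*ND6* was then set against the heavy-strand ND genes within each library, which removes any scaling between libraries. The median of the 6 heavy-strand genes was 9134, 8416, 6986 and 3401 RPKM in library order. It exceeded *ND6* by 354-fold, 561-fold, 523-fold and 221-fold. *ND6* was thus at 0.282% of the heavy-strand median in NC 1 (95% counting interval of its reads, 0.241% to 0.329%), at 0.178% in NC 2 (0.145% to 0.217%), at 0.191% in si-circZFR 1 (0.151% to 0.238%) and at 0.452% in si-circZFR 2 (0.363% to 0.556%). The si-circZFR libraries held both the highest value and a value between those of the NC libraries. The log2 ratio was -8.80 ± 0.47 for NC against -8.41 ± 0.88 for si-circZFR (SD, n = 2 each), a difference of 0.39, smaller than the SD of either group. Left without 1 library, the difference was -0.23 (si-circZFR 2), 1.01 (si-circZFR 1), 0.72 (NC 1) or 0.06 (NC 2). With 2 libraries a group an exact permutation test cannot go below p = 0.333, and no test was made.

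Against *ND5* alone, its neighbour on the map, *ND6* was at 0.612%, 0.459%, 0.392% and 0.829% in library order, and the difference of the log2 ratios was 0.11. Whether the counting used the strand of the reads is not stated, and if it did not, reads of RNA complementary to *ND6* would be counted on it.

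Taken as a sum, the other light-strand RNAs, 8 tRNAs, also stood highest relative to the heavy strand in si-circZFR 2. Their summed scaled RPKM was 267, 295, 129 and 274 in library order. In si-circZFR 2 this was 97.3% of the NC mean, and in si-circZFR 1 it was 45.9%. The 14 heavy-strand tRNAs were at 68.8% of the NC mean in si-circZFR 1 and 48.2% in si-circZFR 2, and the heavy-strand ND genes at 73.8% and 35.5%. So the 2 si-circZFR libraries stood in opposite order for the light-strand tRNAs and for the heavy-strand classes. The light-strand tRNAs rested on 100 to 232 reads in a library.

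**Figure D3:**
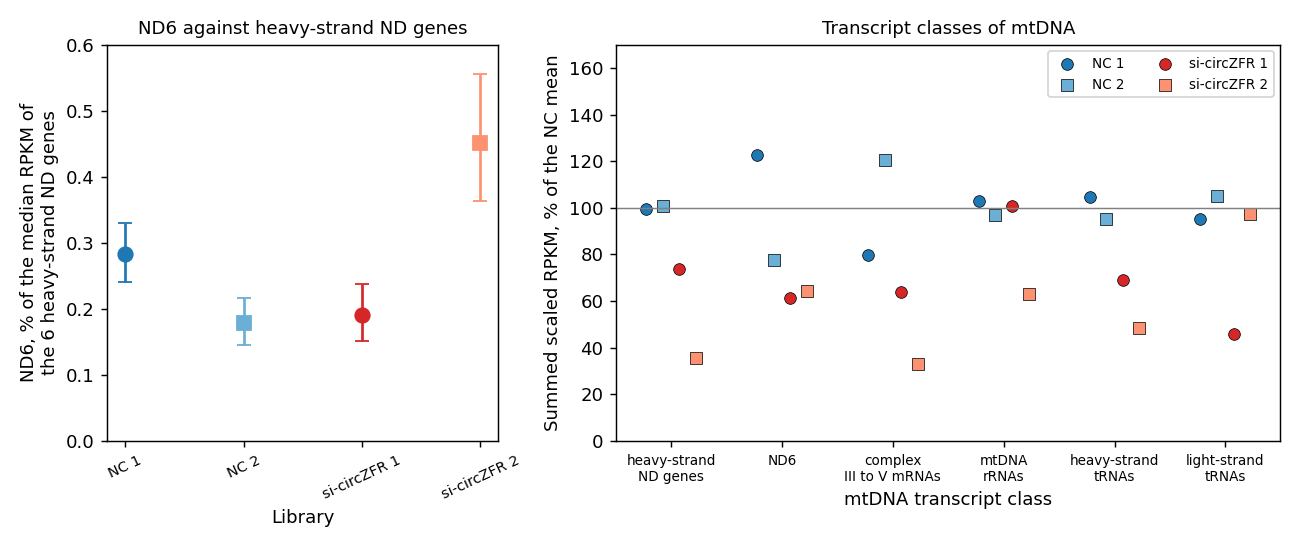
Left, *ND6* as a percentage of the median RPKM of the 6 heavy-strand ND genes in each library, with 95% counting intervals of the *ND6* reads. Right, summed scaled RPKM of transcript classes of mitochondrial DNA in each library as a percentage of the NC mean; si-circZFR 2 is the lowest library for the heavy-strand ND genes (35.5%), the complex III to V mRNAs (32.9%), the rRNAs (63.0%) and the heavy-strand tRNAs (48.2%), but not for *ND6* or the light-strand tRNAs.

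The other genes of the heavy strand differed in like manner where they encode proteins, and less where they encode rRNA. The 6 mRNAs of complexes III to V (*CYTB*, *COX1*, *COX2*, *COX3*, *ATP6* and *ATP8*) had log2FC from -1.24 (*COX2*) to -0.93 (*COX1*), with a median of -1.09. In each of them both si-circZFR libraries lay below both NC libraries, as for 28.1% of all genes. Being cut from 1 precursor, these RNAs are not independent of each other. By limma 0 of the 6 passed, with 0 at an unadjusted p under 0.05, against 21.7% of all genes. By limma-voom 0 passed, with 6 at an unadjusted p under 0.05, against 23.5% of all genes. Between the NC libraries these 6 genes had a median of 0.48 higher in NC 2, whereas the heavy-strand ND genes had a median difference of 0.02. The ND genes took 41.5%, 33.3%, 40.6% and 38.5% of the reads on mRNAs of mitochondrial DNA in library order, with overlap between the groups.

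The rRNAs *RNR1* and *RNR2*, the RNAs of the mitochondrial ribosome, overlapped between the groups. *RNR2* had 45484, 42714, 44458 and 28303 scaled RPKM in library order (log2FC -0.31 ± 0.99 SE, limma FDR = 0.874). *RNR1* had a log2FC of -0.47 (SE 0.51, limma FDR = 0.614). *ND1*, the next mRNA on the map, was at 24.2%, 28.3%, 21.7% and 17.1% of the level of *RNR2* per length in library order, so the groups did not overlap. *ND2* relative to *ND1* was at 80.9%, 63.2%, 61.4% and 51.7%, also without overlap. The ratios of *ND5* to *ND4* and of *ND3* to *ND4L* overlapped. These 2 separated ratios, of 5 formed between heavy-strand ND genes or with *RNR2*, were picked out after their values were seen and have no test. Among single genes, both si-circZFR libraries lay below both NC libraries for 28.1% and above for 28.1%.

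**Figure D4:**
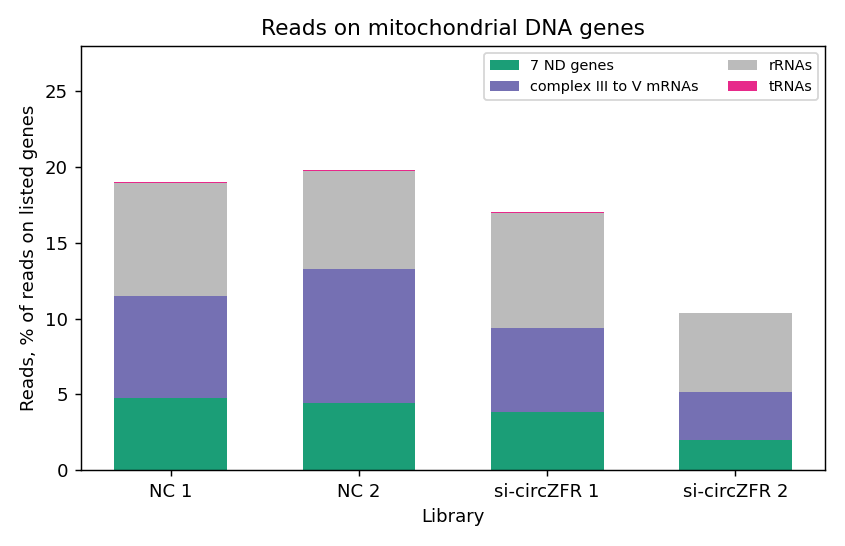
Share of the reads on listed genes that fell on the 7 ND genes, the complex III to V mRNAs, the rRNAs and the tRNAs of mitochondrial DNA in each library. The 4 classes together made up 19.0%, 19.8%, 17.02% and 10.4% in library order.

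In bulk RNA a lower level of mitochondrial RNA per cell and a smaller number of cells with much of it cannot be told apart. All RNAs of mitochondrial DNA took 19.4% ± 0.547 of the reads on listed genes for NC against 13.7% ± 4.69 for si-circZFR (SD, n = 2 each).

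The nuclear subunits of complex I did not show the gap between the si-circZFR libraries. Of 37 nuclear subunit genes tested, 31 had a negative and 6 a positive log2FC, with a median of -0.27, and the median difference of si-circZFR 2 over si-circZFR 1 was 0.16. By limma 0 passed, with 7 lower and 1 higher at an unadjusted p under 0.05 (21.7% of all genes in either direction), and by limma-voom 1 passed, with 7 at an unadjusted p under 0.05 (23.5% of all genes). Both si-circZFR libraries lay below both NC libraries for 12 (32.4%, near the 28.1% of all genes) and above for 1. *NDUFA1* and *NDUFB4*, accessory subunits of the membrane arm, had log2FC of -0.79 and -0.69 (FDR = 0.125 and 0.127 by limma). The 17 assembly factors of complex I had a median of -0.12, with 9 negative and 8 positive, and 0 passed by either tool. Their smallest p values belonged to *ECSIT* (log2FC -0.65), *NDUFAF2* (-0.82) and *COA1* (-0.56), with 3 at an unadjusted p under 0.05 by limma, all lower (11.5% of all genes), and 4 by limma-voom, which as 4 of 17 is at the share of all genes (23.5%).

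Genes that make or keep mitochondrial RNA were next. Of 9 genes for mitochondrial transcription, 0 passed by either tool, 2 had an unadjusted p under 0.05 by each tool (21.7% of all genes by limma, 23.5% by limma-voom), and the median log2FC was -0.02. *TFAM*, which packs mitochondrial DNA and starts its transcription, had 8.04, 9.50, 5.82 and 7.10 RPKM in library order (log2FC -0.54 ± 0.18 SE, limma FDR = 0.176). *TFB2M*, the factor that opens the promoters, had a log2FC of -0.57 (FDR = 0.125 by limma), and *POLRMT*, the mitochondrial RNA polymerase, of 0.31 (FDR = 0.332 by limma). For *TFAM* and *TFB2M* the scaled values of the si-circZFR libraries were close together, with si-circZFR 1 the lower. Of 20 genes for processing and stability of mitochondrial RNA, 16 were negative and 4 positive, with a median of -0.31, and 14 had both si-circZFR libraries below both NC libraries (70.0%, against 28.1% of all genes). None of the 20 passed by either tool, with 4 at an unadjusted p under 0.05 by limma, all lower (11.5% of all genes), and 5 by limma-voom, near the share of all genes (23.5%). *SLIRP*, the partner of *LRPPRC* in keeping mitochondrial mRNAs stable, had 110, 145, 91.8 and 80.6 RPKM in library order (log2FC -0.72 ± 0.24 SE, limma FDR = 0.179). *REXO2* and *FASTKD2* had log2FC of -0.51 and -0.43 (FDR = 0.190 and 0.219 by limma). Of 12 genes for replication and upkeep of mitochondrial DNA, 6 were negative and 6 positive, with a median of -0.06. None of the 12 passed by either tool, and 2 had an unadjusted p under 0.05 by each (21.7% and 23.5% of all genes), *TOP1MT* (log2FC 0.54) and *SSBP1* (-0.49) by limma.

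The nuclear protein-coding genes with the most similar pattern were sought among 5051 genes with a mean RPKM of at least 10. Likeness was the root mean square distance, over the 4 libraries, between a gene's centred log2 values and the median of those of the 7 ND genes. The 5 nearest were *CSTB* (0.135), *S100A11* (0.141), *F8A1* (0.142), *TIMP1* (0.153) and *C8orf59* (0.158), against a median of 0.551 over the genes searched. *S100A11* had 953, 888, 690 and 448 scaled RPKM in library order, with si-circZFR 2 lowest as at the heavy-strand ND genes. *ND2*, *ND4L* and *ND5* had the same order of the 4 libraries, while *ND1*, *ND3* and *ND4* had NC 2 above NC 1. *ND6* was lowest in si-circZFR 1. Of the ND genes themselves, *ND1* was at a distance of 0.0965, *ND3* of 0.294 and *ND6* of 0.437, and 1072 of the 5051 nuclear genes were nearer than *ND6*. Each ND gene takes part in the median it is measured against, which the nuclear genes do not. The distances of the ND genes are therefore small in part by construction.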

How the data were processed

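The authors sequenced total RNA libraries (Ion Total RNA-Seq kit) on the Ion Proton. The article gives alignment to hg38, batch removal by SVA and edgeR, and the submitters' processing notes list GRCh37. The aligner, annotation, strand setting and treatment of multiply mapped reads are not given in the sources used here. The authors deposited RPKM values per gene, 1 file a library, with 40205 genes. Since the values are RPKM and not counts, limma on log2(scaled RPKM + 1) was used in place of a count test.

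Libraries were scaled by unweighted trimmed means, trimming 30% of the log ratios and 5% of the levels. The 13885 genes that reached 1 RPKM in 2 or more libraries were tested, and the prior variance followed a trend (3.81 prior degrees of freedom at the median). To pass, a gene needed |log2FC| over 1 and a Benjamini-Hochberg FDR under 0.05. Fold changes are on the log2(value + 1) scale, which understates changes of low genes. Reads were recovered from the RPKM values with the library total at which all 37 mitochondrial genes had whole reads at their GENCODE lengths (tolerance 0.02). For other genes the shortest length giving whole reads in all libraries was taken, found for 24281 of the 24289 genes above 0. Recovered reads were used for depth, shares, counting intervals, the length correction and limma-voom. The fit was tested on simulated data, with reads drawn independently and changes larger than those of the ND genes. That simulation does not tell how the fit performs at the differences reported here.

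The ND genes and the gene lists were chosen with earlier results of these data known. The text names all ND genes, *ZFR*, the other protein and rRNA genes of mitochondrial DNA, the 3 genes with the smallest p of each list, the 3 nuclear ND copies with the highest mean RPKM, the 5 nuclear genes nearest in pattern and cell line markers, and some results under this rule are not reported here. Correlation of the deviations of same-numbered libraries was 0.0694 over 13885 genes, so the numbers were not taken as pairs. Sequences and positions are from the GRCh38 reference. Software was limma 3.58.1 in R 4.3.3, and matplotlib 3.10.9, scipy 1.17.1, pandas 2.3.3 and numpy 2.4.6 in Python 3.11.15.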

Additional observations from a re-analysis of the deposited data

How the results depend on the processing

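In all 14 alternatives every ND gene kept a negative log2FC and none passed. The p-values depended on the prior variance. With a constant prior variance 4 of the 7 had an unadjusted p under 0.05 by limma, as did 2993 of the 13885 genes tested. The SE of *ND4L* was then 0.36, against 0.73 in the main fit. The median log2FC of the 7 genes ran from -1.31 to -0.46 when 1 library was left out, and was -0.79 with RPKM as deposited, where the median of all genes was 0.15, and -0.67 after the length correction. The length correction gave -0.48 for *ND1*, -0.63 for *ND3* and -0.17 for *ND6*. The number of genes passed was 8, and 2 with a pseudocount of 0.1, 0 without a filter (3639 at an unadjusted p under 0.05), 155 at RPKM of at least 5, 1 with a constant prior variance, 14 after the length correction and 299 with limma-voom. With the replicate number as a block it was 63. The block changed no call of an ND gene, and the same-numbered libraries share only a number. Leaving out 1 library gave 0 to 937 genes, 937 without NC 1 and 0 without each of the other 3, and the lone library of a group is then assumed to vary like the others. The log2 difference of *ND6* against the heavy-strand ND genes ran from -0.23 (without si-circZFR 2) to 1.01 (without si-circZFR 1). The difference in the share of reads, -1.70 percentage points, ran from -2.61 to -0.78 when 1 library was left out, and was -2.93 as a share of summed RPKM. The cause of these differences was not tested. *ND6*, with 79 to 162 reads in a library, and the tRNAs with few reads are limited by depth.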

Other observations

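Nuclear copies of the ND genes, pseudogenes that can share reads with mitochondrial DNA, were listed in 141 rows, of which 5 were tested. *MTND2P28* (GRCh38.p14, chromosome 1, 629640 to 630686) matched *ND2* at 1025 of 1042 aligned bases, and *MTND1P23* (chromosome 1, 629062 to 629440) matched *ND1* at 349 of 352. *MTND1P23* had 1.95%, 2.09%, 2.11% and 2.26% of the reads of *ND1* in library order. *MTND2P28* had 6.41%, 14.3%, 9.28% and 14.5% of the reads of *ND2*, and the groups overlapped. *MTND4P12* (chromosome 5, 134926661 to 134928036), with 1318 of 1376 bases matching *ND4*, had 0.312% to 0.562% of its reads. How reads that fit both places were assigned is not stated, and the values of *ND1*, *ND2* and *ND4* are uncertain to that extent.

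Among the mitochondrial tRNAs, 13 of the 14 on the heavy strand and 7 of the 8 on the light strand had a negative log2FC, and none passed by limma (8 and 2 at an unadjusted p under 0.05). By limma-voom 1, *TRNI*, passed (8 and 1 at an unadjusted p under 0.05). Of all genes, 21.7% by limma and 23.5% by limma-voom had an unadjusted p under 0.05. Both si-circZFR libraries lay below both NC libraries for 12 of the heavy-strand and 2 of the light-strand tRNAs, against 28.1% of all genes, a share that 2 of 8 does not exceed. *TRNR* and *TRNI* are named here after their values were seen. *TRNR*, which lies between *ND3* and *ND4L*, had 6, 3, 43 and 1 reads in library order, and *TRNI*, which follows *ND1*, had 347, 249, 133 and 139 reads (log2FC -1.13, FDR = 0.0968 by limma).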
